A study of Mus musculus with 3 samples.

Results

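Secreted signals that act on nerve fibers were followed in the healing mouse femur. The 9 genes, among 32285 in the deposited matrices, were *Bdnf*, *Ntf3*, *Nrtn*, *Gdnf*, *Sema3a*, *Sema3c*, *Slit2*, *Slit3* and *Ptn*, and all 9 were found by their symbols. They were read in CD45- callus cells that carried a high level of 1 of 7 marker genes, which are *Aspn*, *Chodl*, *Cyp1b1*, *Cnmd*, *Col10a1*, *Ifitm5* and *Rgs5*. In all, 4083 cells at day 10 and 5080 cells at day 14 after fracture fell into these groups. The question was which callus cells carried each signal and whether that differed between days.

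The 3 libraries came from femoral fracture calluses of C57BL/6 mice at days 7, 10 and 14. Callus was freed of muscle and marrow, digested with collagenase and sorted for live lin- cells, which removes cells bearing CD45, CD31 or TER119. No transgene or agent is named for these samples, and the labels give no age for these mice. Each day is a single library, so no difference between days has a replicate check and no test was possible. Intervals are 95% intervals that cover counting error only, and the UMIs (unique molecular identifiers, 1 per captured transcript) of a few rich cells can widen the true error beyond them.

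Cells within the limits of 500 to 5000 genes, at most 10% mitochondrial and at most 5% hemoglobin UMIs numbered 7017, 6593 and 9853 at days 7, 10 and 14. Their median UMIs per cell were 5056, 17370 and 15802. The day 7 library stood apart, since cells with 0 UMIs of *Ptprc*, the gene of CD45, made up 6.37% of it against 99.9% and 98.2% in the later libraries. It held 73 grouped cells, 50 of them *Cnmd*-high, so results rest on days 10 and 14. Pairs of libraries shared 29 to 42 barcodes.

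A cell was called high for a marker when it had at least 3 UMIs of it and a level of at least 25% of that in the highest CD45- cells, taken as a high percentile over the pooled libraries. At day 10 the groups held 903 *Aspn*-high, 38 *Chodl*-high, 55 *Cyp1b1*-high, 2591 *Cnmd*-high, 339 *Col10a1*-high, 94 *Ifitm5*-high and 63 *Rgs5*-high cells. At day 14 they held 2284, 11, 69, 1470, 746, 319 and 181 cells in the same order, and the 11 *Chodl*-high cells were too few to enter a ratio. Companion markers were compared with the other groups summed by their UMIs. All 5 progenitor and matrix genes checked in *Aspn*-high cells (*Postn*, *Ogn*, *Thbs2*, *Col1a1* and *Prrx1*), all 5 tendon-type genes in *Chodl*-high cells, all 5 chondrocyte genes in *Cnmd*-high cells and all 5 osteoblast genes in *Ifitm5*-high cells were at least 2-fold higher than in that sum. The share was 4 of 5 hypertrophic genes in *Col10a1*-high cells and 4 of 5 mural genes in *Rgs5*-high cells on both days. In *Cyp1b1*-high cells 3 of 5 stromal genes passed at day 10 and 4 of 5 at day 14. In several groups fewer were highest in their own group. These were 3 of 5 in *Aspn*-high cells on both days (not *Col1a1* or *Prrx1*), and 2 and 3 of 5 in *Cyp1b1*-high cells. In *Col10a1*-high cells they were 3 of 5 at day 10 and 2 of 5 at day 14, and in *Chodl*-high cells 4 of 5 at day 10. Summed, the *Aspn*-high list was higher in *Ifitm5*-high cells (49048 and 44749 CPM) than in *Aspn*-high cells (28809 and 26084 CPM), mostly through *Col1a1*, a gene of osteoblasts too, and the *Cyp1b1*-high list was 1285 CPM in *Aspn*-high against 972 CPM in *Cyp1b1*-high cells at day 10. These groups are therefore named by their marker gene alone. Of the *Chodl*-high cells at day 10, 12 of 38 were also high for another marker, and their median depth of 7300 UMIs was the lowest of the groups.

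As background, neurotrophins (BDNF and neurotrophin 3) and the GDNF family (GDNF and neurturin) are released by target tissues and keep neurons alive through receptor kinases on the axon. Class 3 semaphorins and Slits are mostly repellents that steer growing axons and blood vessels, through neuropilins with plexins and through Robo receptors. Pleiotrophin, encoded by *Ptn*, is a heparin-binding factor that promotes neurite outgrowth and is abundant in developing bone and cartilage. Periosteum and callus are innervated by sensory and sympathetic fibers. The cell bodies of those neurons lie outside the bone.

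Levels are given as CPM, the UMIs of a gene in a group scaled to a total of 1000000 UMIs over all genes. For free RNA in the suspension, the 119 barcodes at day 14 with at least 2 UMIs of *Ptprc* served as a reference. Their levels rest on few barcodes, and without the 3 richest barcodes of each gene they fell from 70.7 to 19.6 CPM for *Ptn*, from 15.2 to 9.93 for *Slit3*, from 7.22 to 1.5 for *Slit2*, from 6.49 to 1.51 for *Bdnf*, from 5.77 to 2.98 for *Nrtn* and from 3.61 to 0.756 for *Sema3c*, so no level is read as background alone. A gene was called higher or lower in a group when its level differed at least 2-fold from that in the other groups summed and the interval excluded equality. The other groups were weighted by their UMIs, of which *Cnmd*-high cells supplied the most at day 10 (49684345) and *Aspn*-high cells at day 14 (32756479). A call can thus come from a low level in that 1 group, so ratios over the plain mean of the other groups (equal weights, 2-fold rule only) are given for the higher calls that they change and as counts by group. Genes with at least 20 UMIs over the groups entered, which were all 9 genes at day 10 and 8 at day 14, where *Ntf3* had 13 UMIs.

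All 9 genes were called higher in at least 1 group at day 10, where 45.7% of all genes were, and 7 of 8 at day 14, where 42.0% were. *Ntf3* is counted at day 10 but reached the minimum of 20 UMIs only through *Aspn*-high cells, so its call is a description. With at least 20 UMIs required outside the called group, 9 of 9 members at day 10 and 7 of 8 at day 14 were called (41.3% and 36.4% of all genes). *Ntf3* stayed only through its *Chodl*-high call, with 3 UMIs there and 37 outside, of which 35 were in *Aspn*-high cells. At day 10 the highest level of 5 of the 9 (*Bdnf*, *Ntf3*, *Sema3a*, *Slit3* and *Ptn*) was in *Chodl*-high cells, a group too small at day 14 to be followed. The leads of *Ntf3* and *Slit3* there were not beyond counting error. *Chodl*-high cells were the smallest group at day 10, and the share of all genes highest in them is not given here. The count of 5 is thus a description and not read as a trait of the 9. Among groups with at least 20 cells on both days, the group with the highest level was the same for 7 of the 9. Of the 8 members tested on both days it was the same for 6, against 54.6% of all genes. These were *Aspn*-high cells for *Ptn*, *Sema3c* and *Ntf3*, *Cyp1b1*-high cells for *Slit2*, *Sema3a* and *Gdnf*, and *Ifitm5*-high cells for *Nrtn*. *Bdnf* and *Slit3* changed their leading group. At day 14 the leads of *Ntf3* (13 UMIs) and *Gdnf* (2 UMIs in *Cyp1b1*-high cells) were not beyond counting error. At day 10, among groups with at least 20 cells on both days, 2 leads over *Ifitm5*-high cells were not beyond it either. These were *Sema3a* (8.23 against 2.97 CPM) and *Ntf3* (2.63 against 1.19 CPM).

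**Figure D1:**
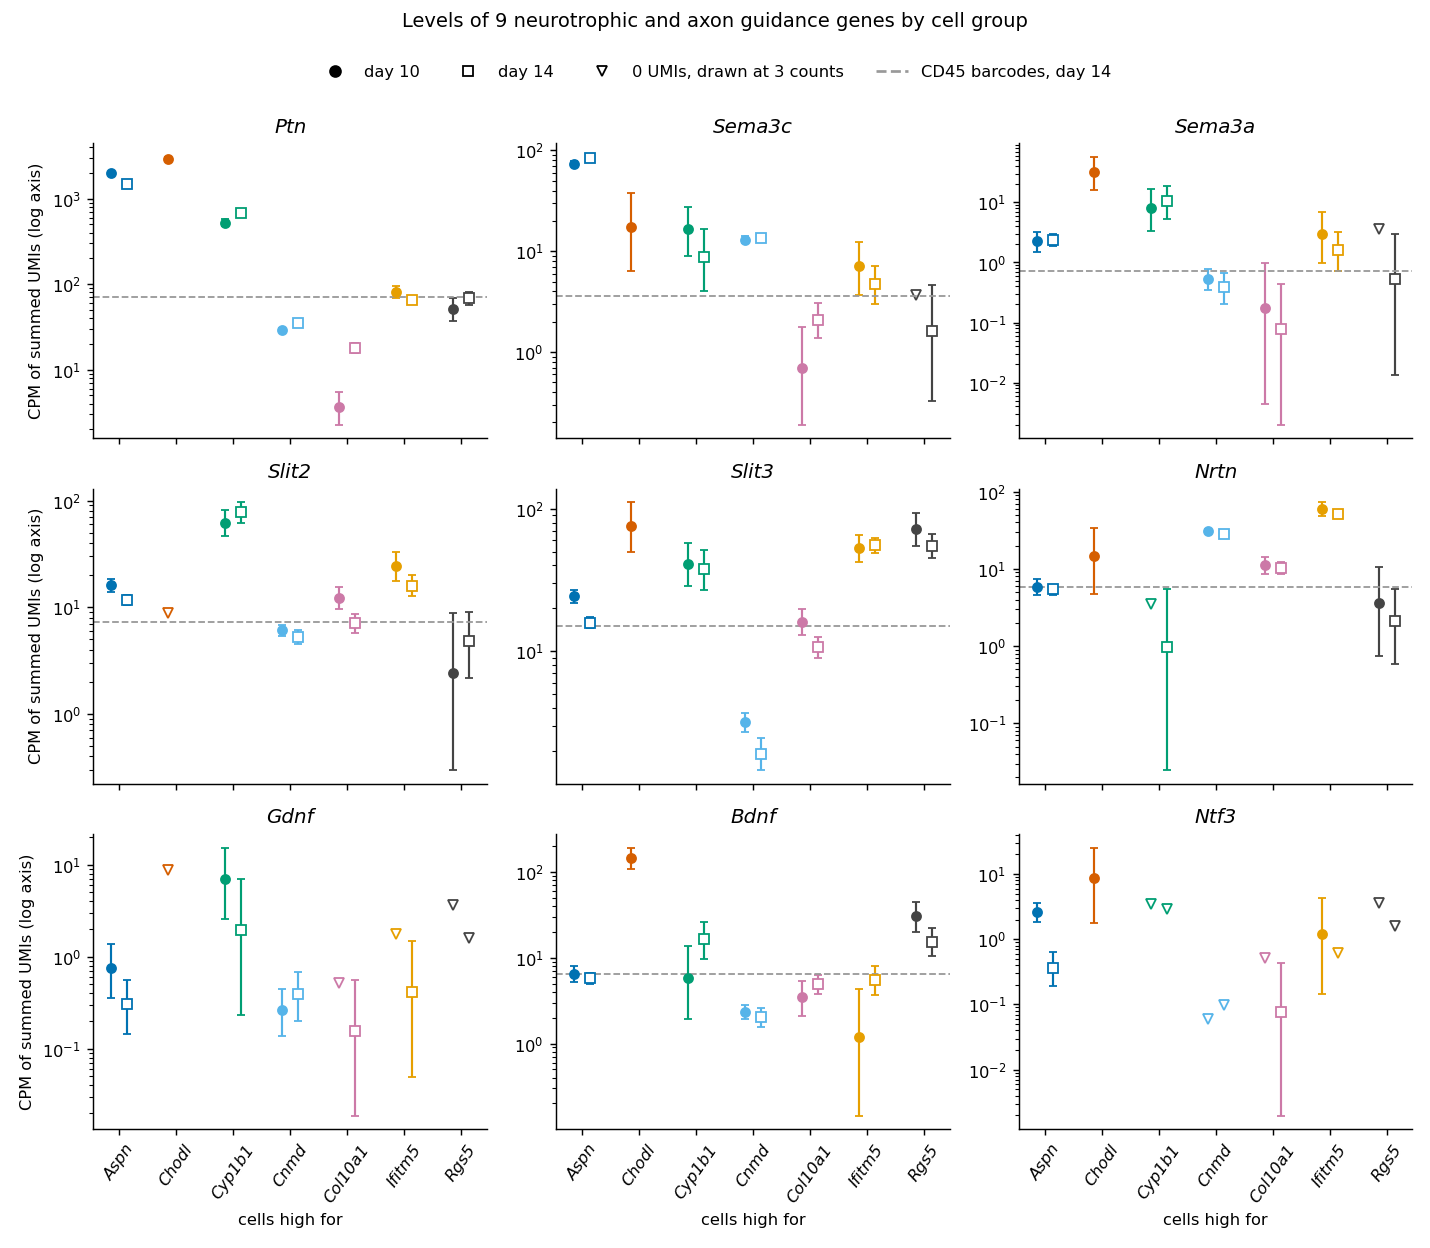
CPM of each of the 9 genes on a log axis in each marker-high group, at day 10 (filled circles) and day 14 (open squares), with 95% Poisson intervals; triangles are groups with 0 UMIs drawn at 3 counts, and the dashed line is the level in CD45+ barcodes at day 14 where they had any UMI. *Ptn* reaches 2907 CPM in *Chodl*-high cells, while *Gdnf* does not pass 7.05 CPM in any group with a UMI.

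*Ptn* had the widest range of the 9. At day 10 its level was 2907 CPM (2729 to 3093, 996 UMIs in 38 cells) in *Chodl*-high cells and 2020.1 CPM (1996 to 2044, 26925 UMIs in 903 cells) in *Aspn*-high cells. It was 522 CPM in *Cyp1b1*-high cells, 81.4 in *Ifitm5*-high, 51.2 in *Rgs5*-high, 29.0 in *Cnmd*-high and 3.63 in *Col10a1*-high cells. Each neighbor in that order differed beyond counting error, but 49 of the 137 UMIs in *Ifitm5*-high cells came from 1 cell, and without the richest cell of each group the *Ifitm5*-high and *Rgs5*-high levels were 52.6 and 39.9 CPM. At day 14 the level was 1468 CPM in *Aspn*-high and 680.4 CPM in *Cyp1b1*-high cells, and the 11 *Chodl*-high cells held 315 UMIs of *Ptn* with at least 1 in every cell. The other groups lay between 17.9 (*Col10a1*-high) and 68.7 CPM (*Rgs5*-high). Without the richest cell of each group they lay between 7.21 (*Col10a1*-high) and 51.4 CPM (*Ifitm5*-high), with *Rgs5*-high cells at 44.6 CPM. The CD45+ barcodes had 70.7 CPM, but 72 of their 98 *Ptn* UMIs came from 3 of them.

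The transcript was spread over most *Aspn*-high cells and not held by a few. At least 1 UMI was present in 862 of 903 cells at day 10 and 2154 of 2284 at day 14. After each cell was thinned to 2000 UMIs, the share was 75.4% and 73.3%, against 6.03% of CD45+ barcodes at day 14 (10.9% before thinning; median depths 14445 and 8505 UMIs). The median *Aspn*-high cell stood at 1052 CPM on day 10 and at 888 CPM on day 14. Against the other groups the log2 ratio was 5.28 (5.22 to 5.33) and 4.95 (4.89 to 5.01) in *Aspn*-high cells, and 2.85 (2.76 to 2.95) in *Chodl*-high cells at day 10. With the other groups weighted equally the values in *Aspn*-high cells were 1.75 and 3.08, the first against a mean that includes the *Chodl*-high level. *Aspn*-high cells held 62.6% and 73.9% of all *Ptn* UMIs of CD45- cells on the 2 days.

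*Ptn* lies on the minus strand of chromosome 6 (GRCm38, 36714929 to 36810220). Its RefSeq promoter window, from 250 bases before to 50 after the start, is shown because *Ptn* had the highest level of the 9. Capitals mark any of 5 motifs searched on both strands, namely the TATA box TATAAA, the CCAAT box, the GC box GGGCGG, the Runx core AACCACA and the Sox core ACAAAG. These are in 13.6%, 37.4%, 35.7%, 5.27% and 18.7% of 32851 RefSeq windows of that length.
Ptn, chr6:36810130-36810429, minus strand: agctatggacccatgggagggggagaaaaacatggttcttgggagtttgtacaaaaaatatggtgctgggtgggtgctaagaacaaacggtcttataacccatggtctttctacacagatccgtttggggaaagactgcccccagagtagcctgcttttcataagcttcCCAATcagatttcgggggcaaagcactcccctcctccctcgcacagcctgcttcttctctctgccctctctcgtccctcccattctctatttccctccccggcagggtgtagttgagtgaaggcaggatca
The window holds 1 CCAAT box at position -81 from the start and none of the other 4 motifs, and its GC content is 52%, near the median of 52.7%.

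The 2 semaphorins, both of class 3 with neuropilins as receptors, differed in the cells that carried them. *Sema3c* was highest in *Aspn*-high cells, with 73.8 CPM (69.3 to 78.6, 984 UMIs in 422 of 903 cells) at day 10 and 83.1 CPM (80.0 to 86.3, 2723 UMIs in 1082 of 2284 cells) at day 14. At day 10 it stood at 17.5 CPM in *Chodl*-high, 16.5 in *Cyp1b1*-high, 13.0 in *Cnmd*-high, 7.13 in *Ifitm5*-high and 0.691 in *Col10a1*-high cells. No UMI was found in 63 *Rgs5*-high cells, where 3 UMIs would be 3.66 CPM. The *Chodl*-high, *Cyp1b1*-high and *Cnmd*-high levels did not differ beyond counting error. At day 14 the 11 *Chodl*-high cells had 63.4 CPM (25.5 to 131, 7 UMIs in 5 cells), whose interval includes the *Aspn*-high level. *Cnmd*-high cells had 13.5 CPM, and the other groups lay between 1.60 and 8.74 CPM beside 3.61 CPM in CD45+ barcodes. The log2 ratio of *Aspn*-high cells over the others was 2.68 (2.54 to 2.83) and 3.17 (3.03 to 3.31). Thinned shares in that group were 12.8% and 12.4% (46.7% and 47.4% unthinned), against 0.862% of CD45+ barcodes (3.36% unthinned).

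*Sema3a*, which restrains sensory fibers and is known in bone, was scarce, with 80 UMIs over the groups at day 10 and 112 at day 14. *Chodl*-high cells had 32.1 CPM (16.0 to 57.4, 11 UMIs in 9 of 38 cells) at day 10. *Cyp1b1*-high cells followed at 8.23 CPM (7 UMIs) and at day 14 had 10.7 CPM (11 UMIs in 10 of 69 cells), the highest among groups of at least 20 cells. The 11 *Chodl*-high cells at day 14 had 27.2 CPM (5.60 to 79.4) from 3 UMIs. *Aspn*-high cells had 2.25 and 2.41 CPM, and chondrocyte groups at most 0.523 CPM. Log2 ratios were 5.07 in *Chodl*-high cells, 3.01 and 3.14 in *Cyp1b1*-high cells and 1.41 and 1.91 in *Aspn*-high cells. The *Aspn*-high calls rested on the low chondrocyte levels, since 3 groups at day 10, and *Cyp1b1*-high and the few *Chodl*-high cells at day 14, had more *Sema3a* than *Aspn*-high cells. With equal weights the *Aspn*-high ratios were -1.70 and -0.14, and the *Cyp1b1*-high ratio at day 10 was 0.38. The ratio of *Sema3c* in *Aspn*-high cells was 3.02 and 3.76 under the same weights.

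*Sema3a* (13125414 to 13602565) and *Sema3c* (17574281 to 17730268) both lie on the plus strand of chromosome 5. The *Sema3c* window is shown for comparison with that of *Ptn*, with the same capitals.
Sema3c, chr5:17574566-17574865, plus strand: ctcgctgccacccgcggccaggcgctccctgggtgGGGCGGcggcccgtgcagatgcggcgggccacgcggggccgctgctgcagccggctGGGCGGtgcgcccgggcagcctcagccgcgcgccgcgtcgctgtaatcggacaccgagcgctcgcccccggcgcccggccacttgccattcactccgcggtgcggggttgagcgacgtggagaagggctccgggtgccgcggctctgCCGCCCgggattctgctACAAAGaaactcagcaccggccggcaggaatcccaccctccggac
It holds 3 GC boxes (-215, -159 and -12) and 1 Sox core (6), and its GC content is 75.7%. No motif of the 5 was in both windows. A match is a run of letters and says nothing of a factor bound there.

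**Figure D2:**
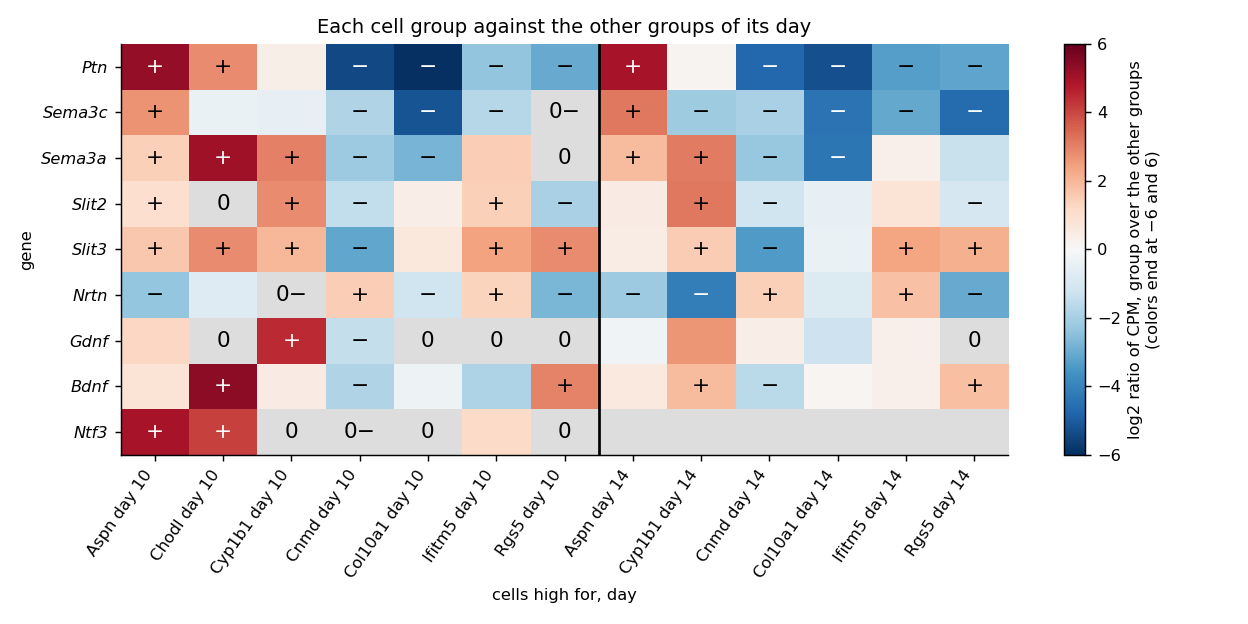
Heat map of the log2 ratio of CPM in a group over the other groups of its day, for each gene (rows) and each group at day 10 and day 14 (columns), with + and − where a gene was called higher or lower; gray cells with 0 had no UMI, and blank gray cells are *Ntf3* at day 14, which was not tested. The highest values are 5.36 for *Bdnf* in *Chodl*-high and 5.28 for *Ptn* in *Aspn*-high cells, both at day 10.

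The 2 Slits, ligands of Robo receptors that repel axons and have roles in bone and vessels, had unlike patterns. *Slit2* was highest in *Cyp1b1*-high cells, at 62.3 CPM (46.7 to 81.5, 53 UMIs in 30 of 55 cells) at day 10 and 77.6 CPM (61.6 to 96.6, 80 UMIs in 36 of 69 cells) at day 14. *Ifitm5*-high cells followed with 24.4 and 16.0 CPM and *Aspn*-high cells with 16.1 and 11.7 CPM. Both were called higher at day 10, with log2 ratios of 1.43 and 1.02, but with equal weights these were 0.56 and -0.16. *Col10a1*-high cells had 12.3 and 7.11 CPM, *Cnmd*-high cells 6.08 and 5.29 CPM and *Rgs5*-high cells 2.44 and 4.79 CPM. No *Slit2* UMI was found in 38 *Chodl*-high cells at day 10, where 3 UMIs would be 8.76 CPM. The log2 ratio of *Cyp1b1*-high cells was 2.82 (2.39 to 3.23) and 3.16 (2.80 to 3.49). Their marker cells at day 14 included 24 of 69 that were also high for another marker.

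*Slit3* was shared by several groups. At day 10 it was 75.9 CPM (49.6 to 111, 26 UMIs) in *Chodl*-high, 71.9 CPM (54.8 to 92.8, 59 UMIs) in *Rgs5*-high, 52.9 CPM in *Ifitm5*-high and 41.1 CPM in *Cyp1b1*-high cells, and no neighbors among these 4 differed beyond counting error. At day 14 *Ifitm5*-high cells had 55.7 CPM (49.3 to 62.7, 272 UMIs in 157 of 319 cells) and *Rgs5*-high cells 54.8 CPM (44.8 to 66.5). *Cyp1b1*-high cells had 37.9 CPM. *Aspn*-high cells had 24.2 and 15.9 CPM and *Col10a1*-high cells 16.1 and 10.7 CPM, beside 15.2 CPM in CD45+ barcodes. *Cnmd*-high cells were lowest, at 3.18 and 1.92 CPM. *Slit3* was called higher in 5 groups at day 10 and 3 at day 14. The day 10 count includes *Aspn*-high cells, whose level was below that of 4 groups but above the 3.18 CPM of *Cnmd*-high cells, which make up most of the reference. With equal weights the log2 ratio of the leading group fell from 2.85 to 1.12 at day 10 (*Chodl*-high) and from 2.36 to 1.2 at day 14 (*Ifitm5*-high). The 2-fold rule was then met in 2 of the 5 groups at day 10 (*Chodl*-high and *Rgs5*-high) and 2 of the 3 at day 14 (*Ifitm5*-high and *Rgs5*-high), and the *Aspn*-high ratio at day 10 turned from 1.64 to -0.84. The *Cyp1b1*-high ratios went from 1.98 and 1.53 to 0.02 and 0.45, and the *Ifitm5*-high ratio at day 10 from 2.43 to 0.45. The change of leading group for this gene lay within counting error. Across the 13 group-days the log2 levels of the 2 Slits had a Pearson r of 0.0283, a description of points that share their libraries.

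*Slit2* lies on chromosome 5 (47983138 to 48307733) and *Slit3* on chromosome 11 (35121224 to 35708507), both on the plus strand. The *Slit2* window is shown because it is the only one of the 4 printed with a TATA box.
Slit2, chr5:47982905-47983204, plus strand: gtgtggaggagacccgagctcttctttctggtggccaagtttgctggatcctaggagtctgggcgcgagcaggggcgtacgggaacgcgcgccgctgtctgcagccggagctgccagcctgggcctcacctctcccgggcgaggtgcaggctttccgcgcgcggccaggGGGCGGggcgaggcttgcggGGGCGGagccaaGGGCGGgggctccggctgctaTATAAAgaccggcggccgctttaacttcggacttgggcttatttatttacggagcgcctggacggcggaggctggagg
The TATAAA is at -28, 3 GC boxes are at -81, -61 and -49, and the GC content is 68%. The *Slit3* window has 6 GC boxes and 78.3% GC. An intron of each gene holds a miR-218 hairpin, Mir218-1 in *Slit2* (chr5:48223966-48223986, mature 5p form) and Mir218-2 in *Slit3* (chr11:35616840-35616860). Both give the same mature 5p miRNA, while their 3p forms differ. The 5p form is shown because both host genes were measured, with its seed (bases 2 to 8) in capitals. UMI counts of polyadenylated RNA do not measure it.
mmu-miR-218-5p: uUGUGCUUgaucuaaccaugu

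The GDNF family ligands separated in amount and in cells. *Nrtn* encodes neurturin, which signals through GFRA2 and RET. It was highest in *Ifitm5*-high cells, at 60.0 CPM (48.9 to 72.9, 101 UMIs in 23 of 94 cells) at day 10 and 51.4 CPM (45.2 to 58.2, 251 UMIs in 93 of 319 cells) at day 14. *Cnmd*-high cells followed at 30.8 CPM (29.3 to 32.4, 1529 UMIs in 901 of 2591 cells) and 28.4 CPM (26.5 to 30.3, 874 UMIs in 470 of 1470 cells). The 50 *Cnmd*-high cells at day 7 had 14.8 CPM from 15 UMIs. *Col10a1*-high cells had 11.2 and 10.2 CPM and *Chodl*-high cells 14.6 CPM at day 10. *Aspn*-high cells had 5.85 and 5.40 CPM, *Rgs5*-high cells 3.66 and 2.13 CPM and *Cyp1b1*-high cells 0 and 0.971 CPM. CD45+ barcodes at day 14 had 5.77 CPM, or 2.98 CPM without the 3 richest.

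*Nrtn* was the only member called higher in *Cnmd*-high cells on both days, with log2 ratios of 1.48 (1.29 to 1.68) and 1.43 (1.27 to 1.58), and of 0.95 and 1.02 with equal weights, the first under 2-fold. In *Ifitm5*-high cells the ratio was 1.34 (1.03 to 1.63) and 1.78 (1.58 to 1.98). At day 10, 40 of the 101 UMIs in that group came from 3 cells, and with the marker threshold raised to 50% the ratio was 0.13, with *Cnmd*-high cells then highest. *Cnmd*-high cells, being numerous, held 64.7% of all *Nrtn* UMIs of CD45- cells at day 10 and 30.6% at day 14. The gene lies on the minus strand of chromosome 17 (56751325 to 56757530), and its window is shown as that of the member called higher in the *Cnmd*-high chondrocyte group.
Nrtn, chr17:56757499-56757798, minus strand: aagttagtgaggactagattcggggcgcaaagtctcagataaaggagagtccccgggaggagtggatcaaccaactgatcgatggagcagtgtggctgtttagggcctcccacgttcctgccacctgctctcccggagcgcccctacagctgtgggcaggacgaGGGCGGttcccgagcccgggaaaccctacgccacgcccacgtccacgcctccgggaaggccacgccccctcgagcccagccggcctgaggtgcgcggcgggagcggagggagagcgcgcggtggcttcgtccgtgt
It holds 1 GC box (-86) and none of the other 4 motifs. Its GC content is 66.7%.

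*Gdnf*, whose product signals through GFRA1 and RET, had few UMIs. It had 29 UMIs over all groups at day 10 and 28 at day 14. *Cyp1b1*-high cells had 7.05 CPM (2.59 to 15.3, 6 UMIs in 4 of 55 cells) at day 10, a log2 ratio of 4.46 (2.87 to 5.79), and 1.94 CPM from 2 UMIs at day 14, where it was not called. *Aspn*-high cells had 0.750 and 0.305 CPM.

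Of the neurotrophins, *Bdnf* was highest in *Chodl*-high cells at day 10, at 146 CPM (108 to 192, 50 UMIs). It was in 11 of the 38 cells, and 3 of them held 34 of the 50 UMIs. *Rgs5*-high cells had 30.5 CPM (19.7 to 45.0, 25 UMIs in 13 of 63 cells), and the other groups lay between 1.19 and 6.53 CPM. At day 14 the 11 *Chodl*-high cells had no *Bdnf* UMI, which allows up to 27.2 CPM. *Cyp1b1*-high cells had 16.5 CPM (9.61 to 26.4) and *Rgs5*-high cells 15.4 CPM (10.3 to 22.2) at day 14, which did not differ beyond counting error, and CD45+ barcodes had 6.49 CPM. The log2 ratio was 5.36 (4.89 to 5.80) in *Chodl*-high cells, and 2.96 and 1.83 in *Rgs5*-high cells. *Rgs5*-high cells were thus called higher for *Bdnf* on both days, but with equal weights the ratios were 0.15 and 1.15, since the day 10 mean then includes the *Chodl*-high level. *Cyp1b1*-high cells were called at day 14 (1.89), but not without cells high for several markers (1.21).

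The *Chodl*-high cells with *Bdnf* were compared with those without. The 11 with *Bdnf* had a median of 10769 UMIs against 7024 in the 27 without. *Tnmd*, a tendon gene, was in 11 of 11 and 25 of 27. The endothelial gene *Cdh5* was in 4 and 3 of them, *Pecam1* in 0 and 1, and *Prph*, a neuronal filament gene, in 7 and 5. Summed endothelial genes reached 58.4 CPM in *Chodl*-high cells at day 10, and 62.2 and 43.7 CPM in *Rgs5*-high cells on the 2 days, above the 9.71 CPM or less in the other groups. The 5 neuron genes summed to 96.3 CPM in *Chodl*-high cells, all from *Prph*, with *Tubb3*, *Elavl4*, *Snap25* and *Syt1* at 0. All 6 Schwann cell genes were at 0 in *Chodl*-high and *Rgs5*-high cells at day 10. The part of depth and of endothelial RNA in the *Bdnf* result was not tested.

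*Ntf3* had few UMIs, and 35 of the 40 in the marker groups at day 10 were in *Aspn*-high cells. That group had 2.63 CPM (1.83 to 3.65, 35 UMIs in 19 of 903 cells), *Chodl*-high cells had more, 8.76 CPM (1.81 to 25.6), from 3 UMIs, and *Ifitm5*-high cells had 2 UMIs. None was found in *Cyp1b1*-high, *Cnmd*-high, *Col10a1*-high or *Rgs5*-high cells. In *Cnmd*-high cells 3 UMIs would be 0.0604 CPM. The log2 ratio was 4.96 (3.60 to 6.67) in *Aspn*-high cells and 4.09 in *Chodl*-high cells, both called higher. Outside *Aspn*-high cells *Ntf3* had 5 UMIs, so it entered only through that group and these calls are descriptions. With equal weights it was 0.66, under 2-fold, in *Aspn*-high and 3.78 in *Chodl*-high cells. *Bdnf* lies on chromosome 2 (109674700 to 109727007, plus strand), where the antisense gene *Gm45346* overlaps one of its exons, and *Ntf3* on chromosome 6 (126101412 to 126166910, minus strand).

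Read by group, the 9 genes were spread unevenly. Of 9 at day 10 in *Aspn*-high cells, 6 were called higher and 1 lower (14.8% and 8.19% of all genes), with a median log2 ratio of 1.41 against 0.26 over all genes. At day 14 it was 3 and 1 of 8 (14.2% and 10.1%), with medians of 0.55 and 0.24. These counts depended on the weights. Of the 6, *Ntf3* was tested only through this group. With equal weights 2 of the 6 (*Sema3c* and *Ptn*) stayed at least 2-fold higher at day 10, *Ntf3* was under 2-fold, and *Sema3a*, *Slit2* and *Slit3* fell below 0. The counts were then 2 higher and 3 lower of 9 at day 10 (7.08% and 11.6% of all genes), with medians of -0.70 and 0.03, and 2 and 2 of 8 at day 14 (8.06% and 11.8%), with medians of -0.77 and 0.09. Over all groups 11 of 21 higher and 18 of 20 lower calls at day 10 met the 2-fold rule with equal weights, and 10 of 12 and 17 of 18 at day 14. *Cnmd*-high cells had 1 higher and 8 lower at day 10 (5.0% and 18.5%) and 1 higher and 6 lower at day 14 (4.79% and 19.4%). *Chodl*-high cells had 5 higher and 0 lower (10.8% and 3.63%). With equal weights the *Cnmd*-high counts were 0 higher and 7 lower (7.62% and 21.2%), then 1 and 5 (5.70% and 21.8%), and the *Chodl*-high counts 5 and 2 (15.1% and 29.5%). *Sema3c* in *Cnmd*-high cells was then no longer 2-fold lower on either day (-0.57 on both).

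*Cyp1b1*-high cells had 4 higher and 1 lower at day 10 (12.2% and 4.19%) and 4 and 2 at day 14 (7.34% and 3.82%). *Rgs5*-high cells had 2 higher and 4 lower on both days (13.8% and 7.77% at day 10, 13.4% and 9.21% at day 14). *Ifitm5*-high cells had 3 and 2 (5.12% and 11.5%), then 2 and 2 (4.57% and 16.3%). *Col10a1*-high cells had none higher on either day (9.50% and 9.05%), with 4 lower at day 10 (14.2%) and 3 at day 14 (18.3%). With equal weights the balance turned in *Cyp1b1*-high cells at day 10, to 2 higher and 3 lower (11.9% and 21.4%), and at day 14 it was 5 and 2 (12.3% and 19.7%), with *Gdnf* and *Ptn* gained and *Slit3* lost. In *Ifitm5*-high cells it turned to 1 and 5 (5.87% and 32.5%) at day 10 and stayed at 2 and 2 (5.19% and 28.0%) at day 14. In *Rgs5*-high cells it was 1 and 7 (13.4% and 26.4%), then 2 and 6 (15.4% and 20.9%). In *Col10a1*-high cells 0 were higher on either day (10.6% and 9.55%), and 7 (23.7%) and 6 (22.8%) were lower. At least 1 of the 9 was detected, without thinning, in 886 of 903 *Aspn*-high cells and in 165 of 339 *Col10a1*-high cells at day 10. *Ptn* alone was in 862 and 17 of these cells. The counts were 38 of 38 in *Chodl*-high, 54 of 55 in *Cyp1b1*-high, 1732 of 2591 in *Cnmd*-high, 82 of 94 in *Ifitm5*-high and 41 of 63 in *Rgs5*-high cells.

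Cells high for no marker also carried them. These 2504 cells at day 10 and 4600 at day 14 held 53.6% and 55.7% of the *Slit2* UMIs, 50% and 51.1% of the *Slit3* UMIs and 24.6% and 49.5% of the *Nrtn* UMIs of CD45- cells. Their *Slit2* level was 19.2 and 14.9 CPM and their *Ptn* level 316 and 209 CPM.

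**Figure D3:**
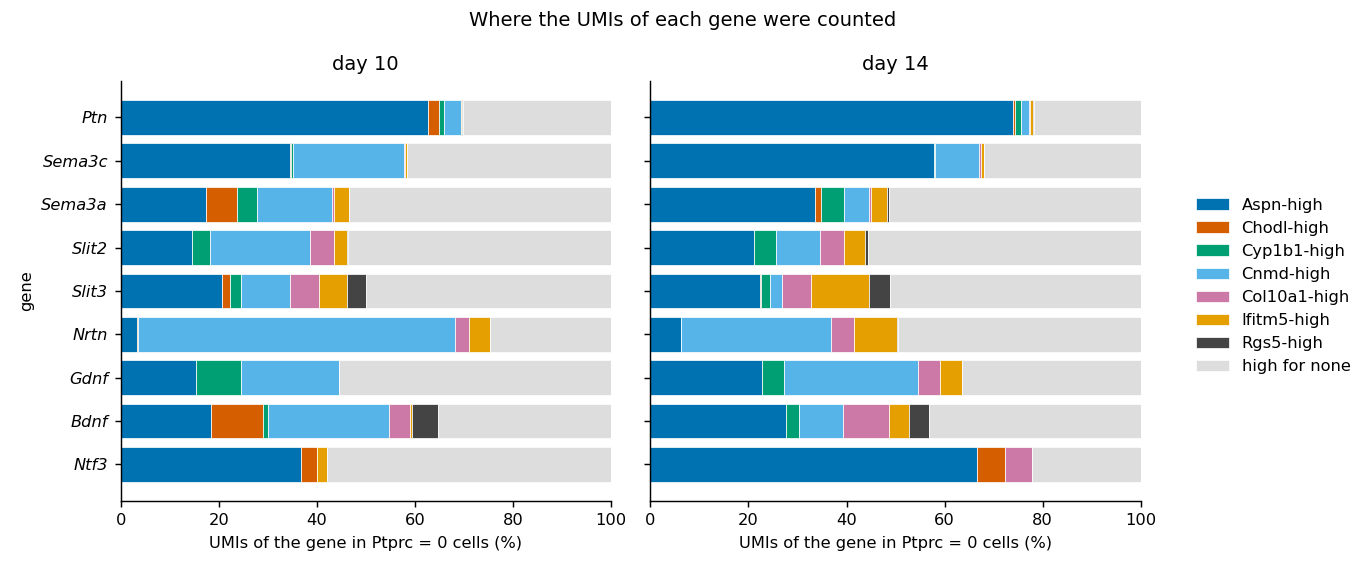
Share (%) of the UMIs of each gene in CD45- cells that was counted in each marker-high group or in cells high for none (light gray), as stacked bars at day 10 and day 14. *Aspn*-high cells hold 62.6% and 73.9% of the *Ptn* UMIs, and *Cnmd*-high cells 64.7% and 30.6% of the *Nrtn* UMIs.

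Within *Aspn*-high cells, day 14 was compared with day 10 over 13733 genes, of which 4.97% were called and the median log2 ratio was -0.02. Among the 9 genes 1 was called, *Ntf3*, which had at least 20 UMIs at day 10 alone, so its difference is a description. With at least 20 UMIs required on each day, 0 of 7 members were called (2.91% of all genes). The *Ntf3* level was 2.63 CPM at day 10 and 0.366 CPM at day 14 (12 UMIs in 7 of 2284 cells), a log2 ratio of -2.84 (-3.92 to -1.86), and -3.11 without the richest cell of each day. In the cells high for no marker it was 1.34 CPM (55 UMIs) at day 10 and 0.0588 CPM (4 UMIs) at day 14. The log2 ratios in *Aspn*-high cells were -0.61 for *Slit3*, -0.46 for *Slit2*, -0.46 for *Ptn* and 0.17 for *Sema3c*, none of which reached 2-fold. With at least 100 UMIs required, *Ntf3* drops out and the count is 0, and at a marker threshold of 50% it had too few UMIs and *Slit2* was called instead (log2 ratio -1.23).

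**Figure D4:**
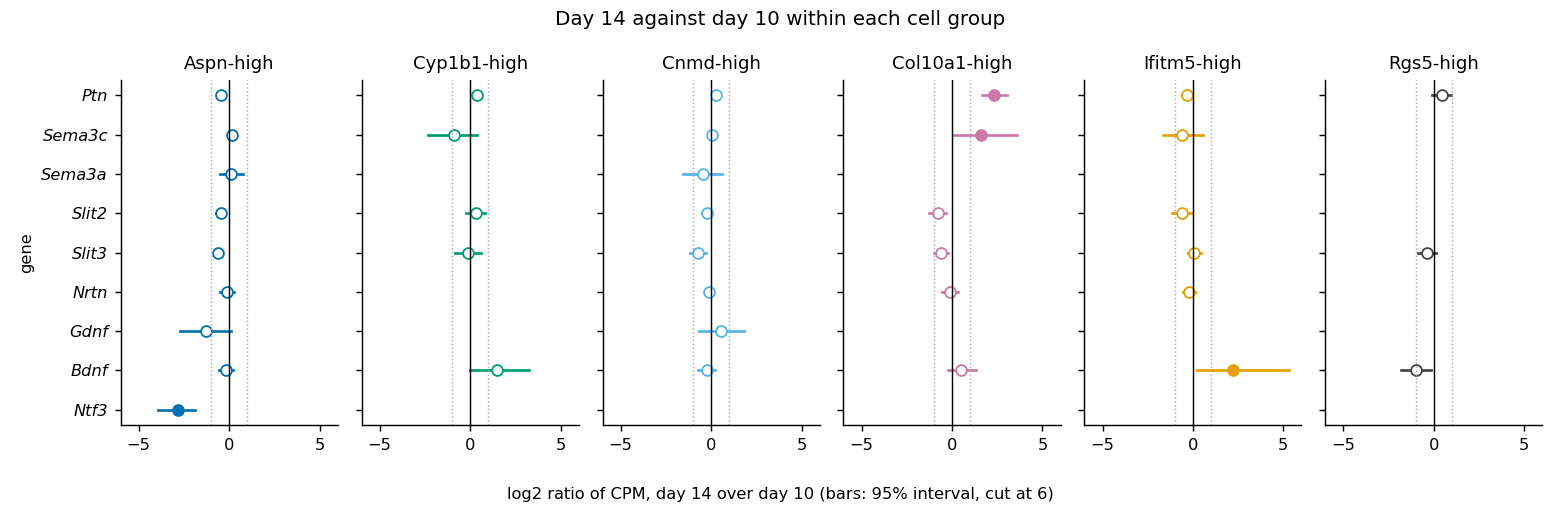
Log2 ratio of CPM at day 14 over day 10 in each group, one point per gene with at least 20 UMIs over both days, with 95% intervals; filled points were called and dotted lines mark a 2-fold difference. *Ntf3* lies at -2.84 in *Aspn*-high cells, where *Sema3c*, *Ptn*, *Slit2* and *Slit3* lie between -0.61 and 0.17.

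In the other groups the differences rested on small counts. *Ptn* was higher at day 14 in *Col10a1*-high cells by 2.31 on the log2 scale, but 139 of its 232 UMIs were in 1 cell, and without the richest cell of each day the ratio was 1.38. *Sema3c* in the same group had 4 UMIs at day 10 and 27 at day 14, a log2 ratio of 1.60, and entered only through day 14. In *Ifitm5*-high cells *Bdnf* was higher by 2.22 (2 and 27 UMIs), but without the richest cell of each day fewer than the 20 UMIs needed for a call were left. Of the members with enough UMIs, 2 of 6 were called in *Col10a1*-high cells (3.31% of all genes) and 1 of 6 in *Ifitm5*-high cells (3.39%). With at least 20 UMIs on each day these became 1 of 5 (*Ptn*, 1.68% of all genes) and 0 of 4 (1.91%), since *Sema3c* and *Bdnf* dropped out. None of 8 was called in *Cnmd*-high cells (4.15%), none of 5 in *Cyp1b1*-high cells (8.44%) and none of 3 in *Rgs5*-high cells (4.63%).

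Partners of the 9 signals were taken from lists of related genes, of which 6 are counted here. At day 10, 3 of 6 tested GDNF-list, 10 of 11 semaphorin-list, 2 of 2 Slit and Robo, 5 of 8 pleiotrophin-related, 6 of 8 netrin and 10 of 15 ephrin genes other than the 9 were called higher in at least 1 group (45.7% of all genes). At day 14 the counts were 5 of 6, 11 of 11, 2 of 2, 7 of 8, 6 of 7 and 11 of 15 (42.0%).

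Receptor kinases of BDNF and neurotrophin 3 had few UMIs. *Ntrk3*, the neurotrophin 3 receptor, had 9 and 16 UMIs in all groups on the 2 days, while *Ntrk2*, the BDNF receptor, had 190 and 100. *Sort1*, a sorting receptor that binds pro-neurotrophins, was highest in *Rgs5*-high cells at 42.7 and 59.6 CPM. *Ret*, the signaling receptor of the GDNF family, had 100 and 87 UMIs. *Gfra2*, which binds neurturin, was highest in *Aspn*-high cells at 24.3 and 24.1 CPM. *Ncam1*, an adhesion molecule that can bind GDNF, was also highest there, at 225 and 230 CPM.

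The semaphorin and Slit receptors were more abundant. *Nrp2* stood at 460 and then 385 CPM in *Ifitm5*-high cells, and *Nrp1* was 254 and 280 CPM in *Rgs5*-high cells. *Plxnd1*, a plexin of vessels, was 56.4 and 36.9 CPM in *Cyp1b1*-high cells. *Robo1* was highest in *Aspn*-high cells (51.7 and 59.2 CPM) and *Robo2* in *Ifitm5*-high cells (64.8 and 56.7 CPM). Of the pleiotrophin relatives, *Mdk*, encoding midkine, was 524 CPM in *Aspn*-high cells at day 10, the highest of the groups, and 705 CPM at day 14, level with the 705 CPM of *Cyp1b1*-high cells. *Ptprz1*, a receptor of pleiotrophin, was highest in *Ifitm5*-high cells at 178 and 173 CPM.

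Within *Aspn*-high cells, 52 genes of these lists could be compared between days, and 5 were called lower at day 14 and 0 higher (4.97% of all genes called), named here after their values were seen. *Ptprz1* fell from 22.7 to 3.24 CPM (303 and 106 UMIs), a log2 ratio of -2.81 (-3.15 to -2.49), and *Ntrk2* from 3.68 to 0.641 CPM (49 and 21 UMIs), a ratio of -2.52. *Efna5*, an ephrin ligand, fell from 53.0 to 25.7 CPM, a ratio of -1.04. *Dcc*, a netrin receptor, had 22 UMIs at day 10 and 3 at day 14, and *Epha7* had 14 and 12. With at least 20 UMIs on each day the count was 3 of 46, without *Dcc* and *Epha7*, against 2.91% of all genes. Higher and lower calls of list genes were 3 and 0 of 29 in *Cyp1b1*-high and 2 and 0 of 24 in *Rgs5*-high cells. They were 1 and 2 of 51 in *Cnmd*-high, 0 and 2 of 42 in *Col10a1*-high and 1 and 1 of 36 in *Ifitm5*-high cells. Requiring at least 20 UMIs on each day gave 2 of 20 (4.21% of all genes), 1 of 15 (2.68%), 2 of 48 (2.31%), 2 of 33 (1.68%) and 0 of 22 (1.91%) called, in that order. The shares of all genes without that requirement are given above.

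**Figure D5:**
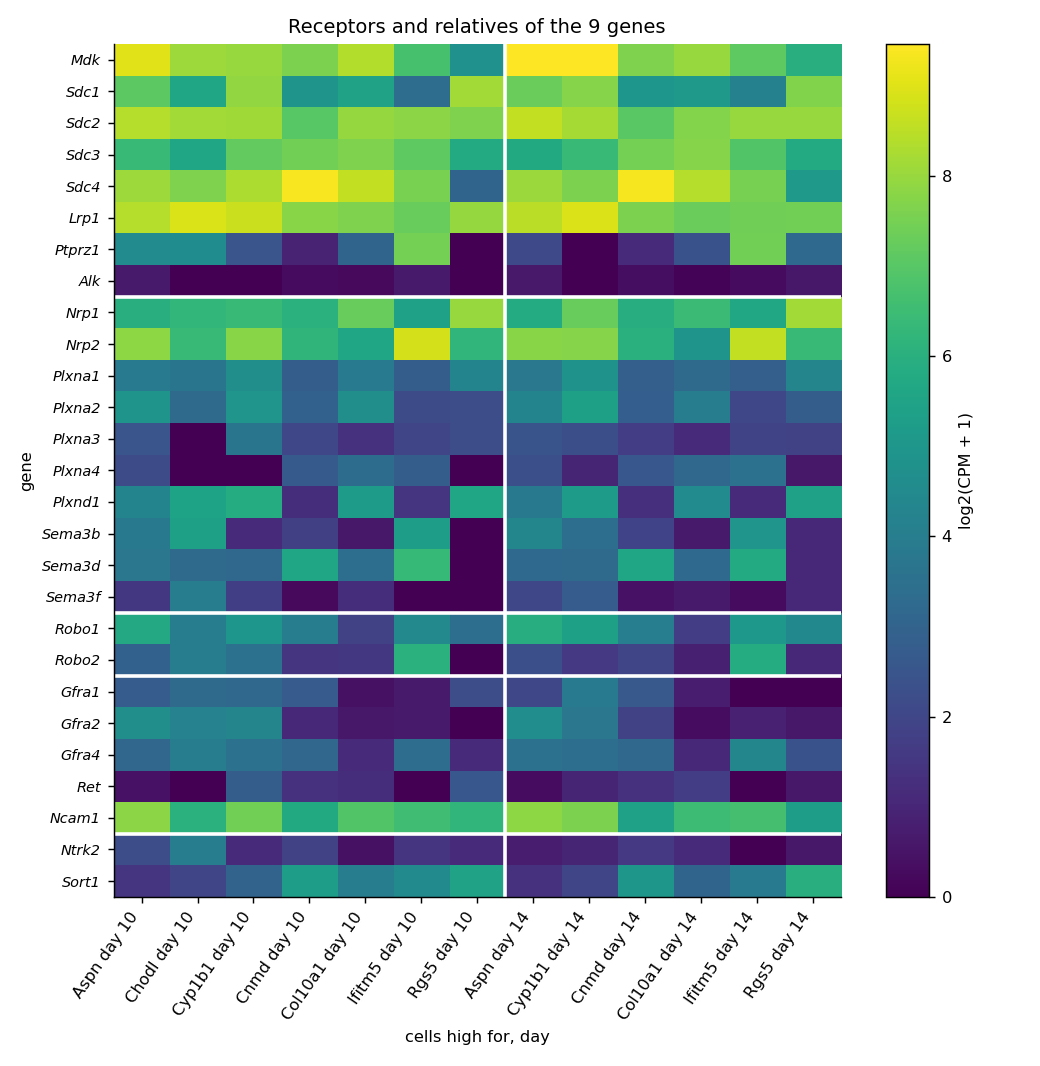
Heat map of log2(CPM + 1) of receptors and relatives of the 9 genes (rows, by family) in each group at day 10 and day 14 (columns). *Mdk*, Sdc4 and Lrp1 are among the brightest rows, *Nrp2* peaks in *Ifitm5*-high cells, and *Ret* and *Ntrk2* are dark in most groups.

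From the netrin list, *Neo1* was 178 CPM in *Chodl*-high cells at day 10 and *Unc5b* 122 CPM in *Rgs5*-high cells. From the ephrin list, *Epha3* was 192 CPM in *Cyp1b1*-high cells at day 14. Genes whose log2 levels followed a member most closely over the 13 group-days, among 12082 genes, were *Rassf8* for *Ptn* (Pearson r of 0.979), *Tnn* for *Sema3c* (0.968), *Nf1* for *Bdnf* (0.969), *Ptpn13* for *Slit3* (0.965), *Zfp110* for *Slit2* (0.941) and *Akap9* for *Nrtn* (0.914). Among the members, *Sema3c* and *Ptn* had the highest r, 0.748. These points share libraries and depth, and the values are descriptions.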

How the data were processed

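Droplet 3' single-cell RNA libraries of sorted lin- fracture callus cells at 3 days (1 each) were used. The authors deposited raw UMI counts per gene and barcode from Cell Ranger (3.0 in the submitters' processing notes with mm10; 3.1.0 in the file header; the methods name another release), and no normalization had been applied. Limits were 500 to 5000 genes, at most 10% mitochondrial and 5% hemoglobin UMIs. CD45- cells had 0 UMIs of *Ptprc* and background barcodes at least 2. Doublets were treated only by the upper gene limit. A cell high for several markers went to the highest multiple of its threshold, and groups under 20 cells entered no ratio.

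Counts were summed per group and day and scaled to CPM, with exact Poisson intervals for levels, exact binomial intervals for ratios and Clopper-Pearson intervals for shares after thinning to 2000 UMIs. Floors are 3 counts. PCR duplicates are collapsed by UMI. Calls needed a 2-fold ratio and at least 20 UMIs. Profiles used log2(CPM + 1) of genes with at least 200 UMIs. The ratio code was tested on simulated data. Genes named are the 9 members, the 4 highest genes of each list or receptors of members called on both days, and the nearest profiles, of which a part is printed. Of the list genes, *Ntrk3*, *Dcc* and *Epha7* were named outside this rule. The members and lists were chosen with earlier results of these data known. Positions are GENCODE M21 (GRCm38) and sequences RefSeq (GRCm38.p6). Analyses used Python 3.11.15, numpy 2.4.6 and scipy 1.17.1. Some related genes are not reported here. Alternatives changed the marker threshold, cell limits, ties, weighting, scaling and count minimum.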

Additional observations from a re-analysis of the deposited data

Results flagged for a closer look

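Data outside the comparisons held signal above the floor of 3 UMIs in groups with too few cells for a ratio. At day 7 the 9 *Aspn*-high cells held 248 UMIs of *Ptn*, 11 of *Sema3c*, 8 of *Slit3* and 5 of *Slit2*. The 8 *Cyp1b1*-high cells held 226 UMIs of *Ptn*, 23 of *Slit2*, 14 of *Slit3* and 4 of *Bdnf*. The richest *Cyp1b1*-high cell for each gene held 210 of these *Ptn*, 17 of the *Slit2* and all 4 *Bdnf* UMIs. In *Aspn*-high cells 9 of the 11 *Sema3c* UMIs were in 1 cell. The 2 *Chodl*-high cells held 54 UMIs of *Ptn*, the 2 *Col10a1*-high cells 4 of *Nrtn* and the 2 *Ifitm5*-high cells 4 of *Slit3*. The *Nrtn* and *Slit3* UMIs of these last groups were in 1 cell each. At day 14 the 11 *Chodl*-high cells held 315 UMIs of *Ptn*, 7 of *Sema3c* and 4 of *Slit3*. These are values of few cells and no comparison was made.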

How the results depend on the processing

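The count of members called higher in at least 1 group ranged from 6 to 9 at day 10 and from 7 to 8 at day 14 over the alternatives, and the count with the same leading group from 7 to 9. Shares of all genes under these settings are not given here, and the number of members tested changed with some, so these counts are descriptions. At day 10, *Ntf3* and *Gdnf* had 11 and 9 UMIs at the 50% marker threshold, under the 20 needed to be tested, and a minimum of 100 UMIs left 6. The marker threshold alternatives did not vary the 38 *Chodl*-high cells at day 10, only the groups compared with them. The count for day 14 against day 10 in *Aspn*-high cells depended on the setting, and for most settings no share of all genes is given beside it. The count was 2 (*Ntf3* and *Gdnf*) with the marker threshold at 10%, and 0 with at least 100 UMIs or with at least 20 UMIs on each day. At 50% it was again 1, but the gene was *Slit2* (log2 ratio -1.23), and *Ntf3* had 8 and 2 UMIs there and could not be tested. In the 187 values that the alternatives gave for the members' highest groups, all were above 0 and 177 met the call rule, applied here without the minimum of 20 UMIs. For the mean of cells and for equal weights the rule was the 2-fold rule alone, with no interval, and 17 of 17 values met it in each. These groups were chosen for their highest level, so a value above 0 follows largely from that choice. The size of the ratios depended most on the weights of the other groups. With equal weights (2-fold rule only, no interval) 10 of 17 moved by more than the counting interval, for example *Bdnf* in *Chodl*-high cells from 5.36 to 4.13, *Sema3a* there from 5.07 to 3.77 and *Nrtn* in *Ifitm5*-high cells from 1.34 to 2.45 at day 10, against 0 to 6 of 17 under any other setting. Beyond each gene's highest group, 10 of 12 higher calls at day 10 and 2 of 5 at day 14 were no longer 2-fold, and 3 and 1 of them turned below 0, all in *Aspn*-high cells. Of the 10 not called, 8 were *Gdnf* at day 14, which was not called in the report either, 1 was *Nrtn* in *Ifitm5*-high cells and 1 was *Bdnf* in *Cyp1b1*-high cells at day 14 without cells high for several markers (1.21). Thinning to 5000 UMIs raised the share of *Aspn*-high cells with *Ptn* to 86.9% and 88.2%. Leaving out the richest cells or barcodes, the UMI minimums on each side, and equal weights beyond the highest groups, were chosen after the data were seen. No paired analysis was possible because each day is a single library, and leaving out a replicate was likewise not possible. *Ntf3*, *Gdnf* and *Sema3a* had the fewest UMIs (40, 29 and 80 over the groups at day 10).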
